A study of Homo sapiens with 12 samples.

Results

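RNA-seq counts were used to ask which parts of the RAS-induced senescence programme were still present in cells whose XPO7 mRNA was low. The comparison was made between 6 libraries from cells carrying an shRNA to XPO7 with RAS induced and 3 libraries from non-induced cells, and these 9 libraries were chosen by their group labels from the 12 of the series. The other 3 libraries, induced cells without an XPO7 shRNA, served as the reference for what induction does when XPO7 is normal.

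All libraries were from IMR90 ER:RAS cells, human diploid lung fibroblasts of 1 cell line (passage 13) in which RAS is fused to a portion of the estrogen receptor and 4-hydroxytamoxifen (4OHT) switches it on and starts oncogene-induced senescence (OIS). Non-induced cells carried the control vector and received no 4OHT (libraries T, A and C). Induced cells carried the control vector and received 100 nM 4OHT (libraries T, A and B). Knockdown cells carried shXPO7_3 (libraries T, A and B) or shXPO7_5 (libraries T, A and B) and received the same 100 nM 4OHT. The labels place harvest 5 days after induction, and give 7 days in culture with a change of medium on day 4. A knockdown without 4OHT and cells without ER:RAS given 4OHT were not analysed here, so the knockdown libraries differed from the non-induced ones by both 4OHT and the shRNA, and an effect of RAS and an effect of 4OHT itself cannot be told apart.

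OIS is a stable arrest of growth that follows the activation of an oncogene such as RAS. The arrest is held by inhibitors of cyclin-dependent kinases, among them p21CIP1 (CDKN1A), p16INK4a (CDKN2A) and p15INK4b (CDKN2B), which keep RB active so that E2F, FOXM1 and the genes of DNA replication and mitosis are turned down. Senescent cells also lose lamin B1 and secrete cytokines, proteases and growth factors, the senescence-associated secretory phenotype (SASP), which is driven in large part by NF-kB and interleukin-1. XPO7 (exportin 7) is a nuclear transport receptor of the importin beta family.

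Levels are given as CPM, the counts of a library scaled to a common TMM-adjusted total, and differences on the log2 scale with their standard error (SE), both from 1 edgeR model over all 12 libraries. A gene is called changed at an adjusted p under 0.05 over the 15284 genes tested. Total counts ran from 28534141 to 60397769 per library. The libraries differed in how counts depended on the GC content of genes: the correlation (Spearman, across genes) of a library's log ratio to the non-induced mean with GC content ran from -0.622 to 0.563 among the non-induced libraries, from -0.163 to -0.0846 among the induced ones, from -0.224 to 0.123 for shXPO7_3 and from -0.102 to 0.346 for shXPO7_5. A non-induced library is here set against the mean of its own group, so values of both signs are built in. For the other libraries the ratio also holds the difference between groups. The ranges of non-induced and other libraries are therefore not comparable. Whether the 3 libraries of each group are from separate cultures is said neither in the labels nor in the methods, and p-values measure only the spread between these libraries. Fibroblast markers summed to 24280 to 28120 CPM in non-induced and 17700 to 21990 CPM in knockdown libraries, and all 10 passed the filter on low counts. The epithelial keratins KRT5 and KRT14, the endothelial markers PECAM1 and CDH5 and the T cell marker CD3E were at 0 in every library, and the 7 immune markers summed to at most 1.88 CPM. The 7 epithelial markers summed to 37.12 to 43.17 CPM in non-induced and 3.2 to 4.887 CPM in knockdown libraries, and 3 passed the filter, all called lower. The 6 endothelial markers summed to 14.65 to 15.05 CPM and 8.939 to 12.05 CPM, and 3 passed the filter, with 2 called higher and 1 lower.

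XPO7, on chromosome 8, checked the knockdown. It stood at 142, 132 and 129 CPM in the non-induced libraries and at 127, 144 and 139 CPM in the induced ones, which overlapped. In the knockdown it was at 26.4, 28.6 and 27.9 CPM with shXPO7_3 and 50.8, 54 and 51.8 CPM with shXPO7_5, below every library without an XPO7 shRNA. The log2 fold change against non-induced cells was -1.82 ± 0.059 (SE) for both shRNAs combined (adjusted p = 1.11e-10, and p = 0.0238 in an exact two-sided permutation test of 6 against 3 libraries, the smallest it can give). For the separate shRNAs it was -2.28 and -1.36, a fall of 4.86-fold and 2.58-fold. The gene was therefore low but still measured in the cells described below. RANBP17, its closest relative among the transport receptors, was at 6.89, 8.77 and 10.5 CPM in non-induced libraries and 6.85 to 9.42 (median 8.45) CPM in the knockdown (adjusted p = 0.662). TCF3, a helix-loop-helix transcription factor, ran from 79.0 to 116 CPM in the knockdown against 99.3, 103 and 91.2 CPM in non-induced libraries, and these groups overlapped (log2 fold change -0.057 ± 0.079, adjusted p = 0.561).

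**Figure D1:**
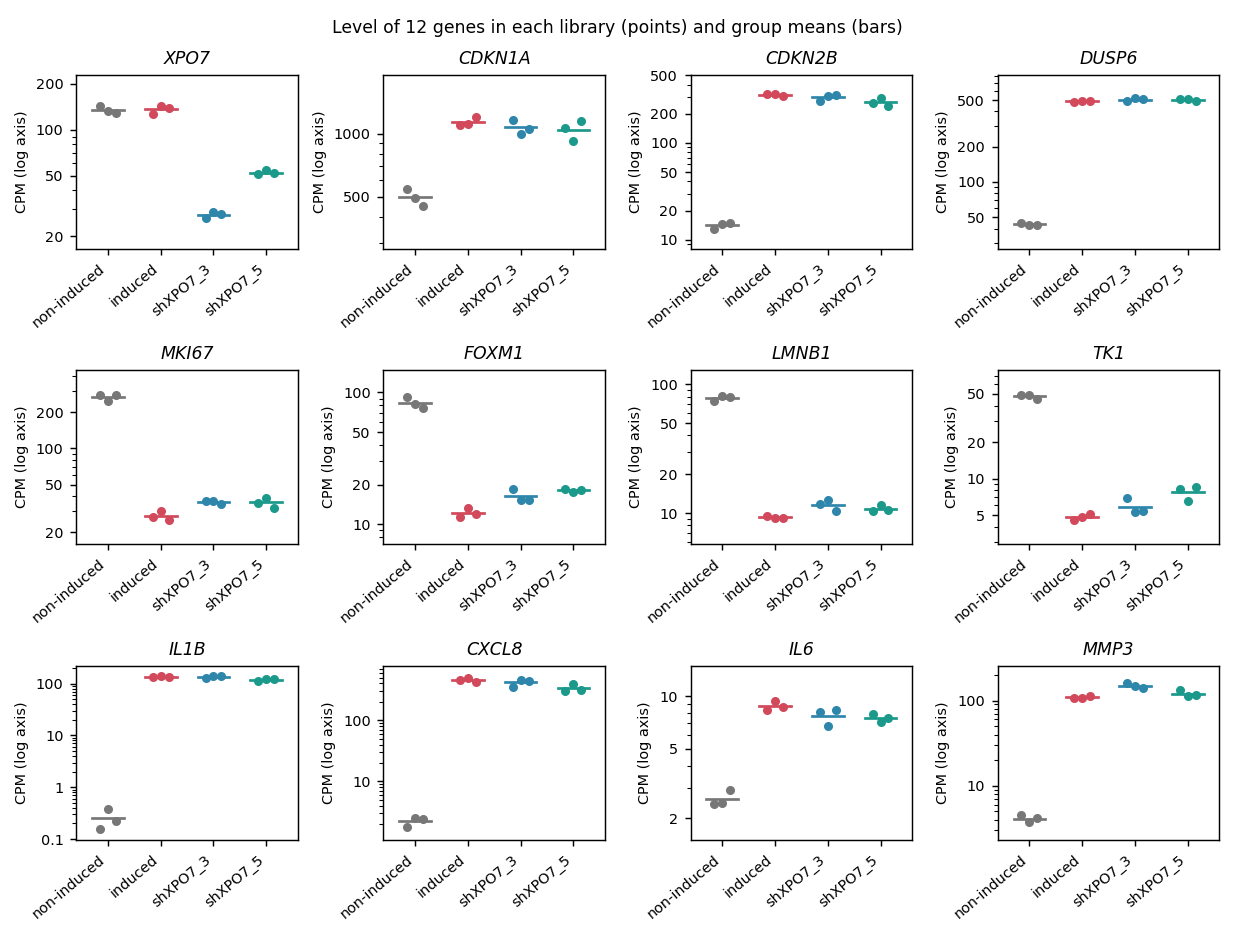
Level of 12 genes in each library, in CPM on a log axis, for non-induced, induced, shXPO7_3 and shXPO7_5 cells; points are libraries and bars are group means of 3. XPO7 is lowest with shXPO7_3 (26.4 to 28.6 CPM), while for the other 11 genes all knockdown libraries lie on the induced side, away from the non-induced ones.

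Knockdown cells with RAS induced differed widely from non-induced cells. Of 15284 genes, 8582 (56.2%) were called, 4090 higher (26.8%) and 4492 lower (29.4%), and 2662 (17.4%) were called with a log2 fold change of at least 1. With upper-quartile factors 39.8% of the calls were higher, against 47.7%. shXPO7_3 alone gave 7741 genes (50.6%) and shXPO7_5 alone 7999 (52.3%), and 6476 (42.4%) were called with both shRNAs in the same direction. The values of the 6 knockdown libraries and the 3 non-induced ones did not overlap for 7011 genes (45.9%). For comparison, induction with the control vector gave 7777 genes (50.9%), from the same non-induced libraries. Since more than every other gene was called, counts over a gene list are read against these shares, and the medians carry more of the description.

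The knockdown libraries were then compared directly with induced ones, in which XPO7 was normal. Between the 6 knockdown and the 3 induced libraries, 85 genes (0.556%) were called, 62 higher (0.406%) and 23 lower (0.15%), and 5 (0.0327%) with a log2 difference of at least 1. The 95% interval of the difference lay within 1 on the log2 scale for 91.0% of the genes tested and within 0.5 for 63.2%, so that for most genes a difference of 1 or more is outside it. The count rested on few libraries: it was 1, 1 and 2 without induced library T, A and B, 51, 23 and 52 without shXPO7_3 library T, A and B, and 23, 191 and 54 without shXPO7_5 library T, A and B. With a correction for GC content and length it was 369, of which 61.5% were higher in the knockdown (72.9% of the 85), and with DESeq2 it was 247. An unadjusted p under 0.05 was found for 1825 genes, and the values of the 6 and 3 libraries did not overlap for 7.86% of genes.

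**Figure D2:**
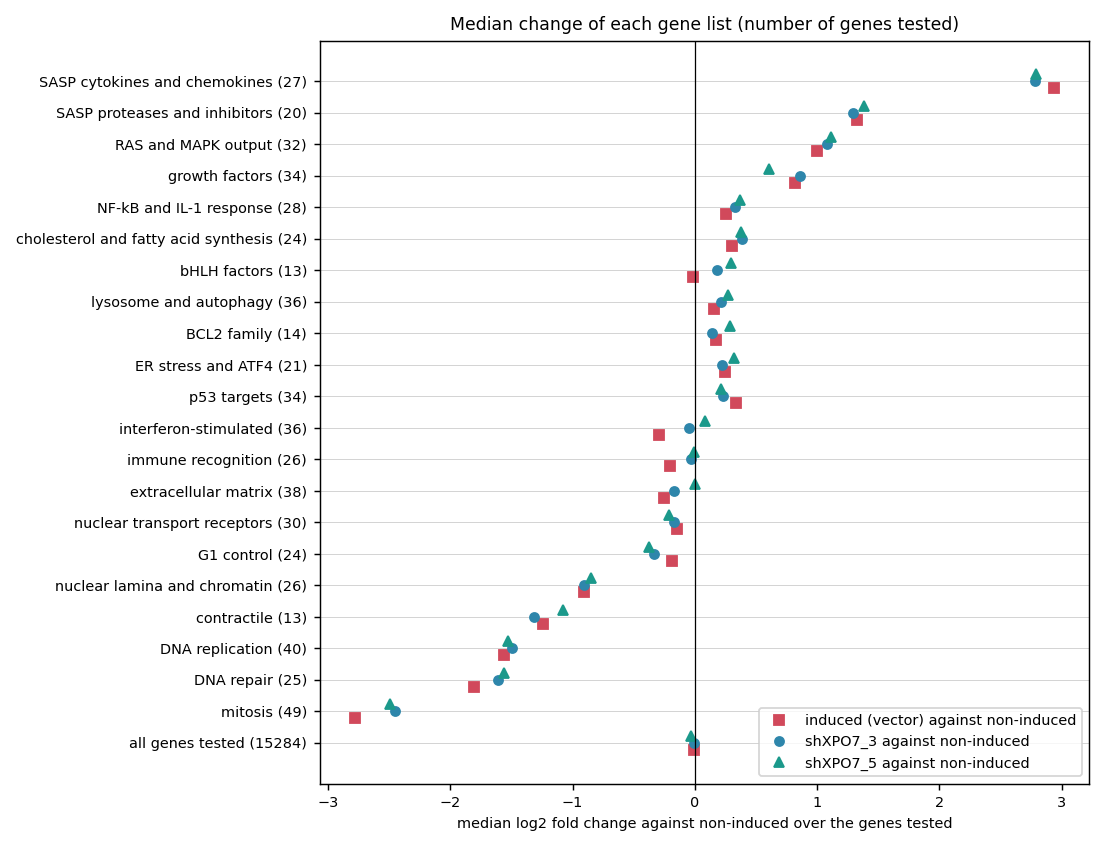
Median log2 fold change against non-induced cells over the tested members of 21 gene lists and over all genes, for induced cells and for each shRNA (symbols); the 3 comparisons share the non-induced libraries. SASP cytokines lie furthest right (2.78 for shXPO7_3, 2.79 for shXPO7_5 and 2.94 for induced cells) and mitosis furthest left (-2.45, -2.50 and -2.78). Of the 27 SASP cytokines, 9 had fewer than 10 counts in every non-induced library and so passed the filter through the induced groups.

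Genes of mitosis fell most. All 49 listed genes were called lower in knockdown cells (background 29.4%), with a median log2 fold change of -2.49 against -0.018 over all genes, and the median in induced cells was -2.78. MKI67, the proliferation marker Ki-67, was at 279.9, 250.2 and 280.4 CPM in the non-induced libraries and 32.2 to 38.9 (median 35.9) CPM in the 6 knockdown libraries, with 26.8, 30.3 and 25.5 CPM in the induced ones. The 3 ranges did not overlap, with the knockdown libraries just above the induced ones and far below the non-induced ones. The log2 fold change against non-induced cells was -2.92 ± 0.073 (adjusted p = 1.5e-11), and the direct difference from induced cells 0.38 (95% interval 0.20 to 0.55, adjusted p = 0.0678). This direct difference passed the threshold with DESeq2 (0.39, adjusted p = 0.00311) and with the correction for GC content and length (0.45, adjusted p = 0.00566). KIF20A, a kinesin of cytokinesis, went from 80.4, 79.9 and 76 CPM to 7.87 to 9.12 (median 8.40) CPM (log2 fold change -3.21 ± 0.059), the largest fall of the list. HMMR, a spindle assembly protein, ran unevenly over the non-induced libraries, at 17.2, 25.2 and 37.8 CPM in T, A and C, and was at 1.77 to 4.41 (median 3.23) CPM in the knockdown (log2 fold change -3.08 ± 0.26). NEK2, a centrosome kinase, fell by 2.98 and CCNA2, the cyclin of S phase and G2, by 2.49 on the log2 scale. CCNA2 was at 9.91 to 13.1 (median 12.1) CPM in the knockdown against 62.5, 66 and 69.5 CPM in the non-induced libraries.

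Promoters of this list are shown because their genes fell together in all 6 knockdown libraries. In RefSeq promoters of GRCh38.p14 (250 bases before to 50 after the start), matched to the counts by gene symbol, the cell cycle homology region (CHR, TTTGAA on either strand) was present in 30 of 43 mitosis promoters (69.8%) and in 9.84% of 11113 promoters of genes tested, and CCAAT on either strand in 72.1% and 36.5%. The 150 bases before the start are printed 5′ to 3′ on the gene's strand with both motifs in capitals, for CCNB2 (cyclin B2; chr15:59104996-59105145, + strand) and PLK1 (polo-like kinase 1; chr16:23678739-23678888, + strand).
CCNB2: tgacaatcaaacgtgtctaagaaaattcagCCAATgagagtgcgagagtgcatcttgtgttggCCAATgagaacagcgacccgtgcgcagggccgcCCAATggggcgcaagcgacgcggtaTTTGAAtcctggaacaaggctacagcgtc
PLK1: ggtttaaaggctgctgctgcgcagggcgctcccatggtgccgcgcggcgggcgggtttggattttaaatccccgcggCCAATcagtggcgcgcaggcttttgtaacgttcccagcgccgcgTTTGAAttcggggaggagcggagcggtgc
These promoters were chosen after the values were seen, and a match describes the letters only.
CCNB2 was at 45.4, 42.8 and 42.5 CPM in the non-induced and 7.68 to 9.87 (median 8.01) CPM in the knockdown libraries. PLK1 was at 66.7, 59.9 and 58.5 CPM and 8.83 to 13.1 (median 11.1) CPM, with 6.12, 7.90 and 7.93 CPM in induced cells.

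5 mitosis genes were called higher in knockdown than in induced cells (background 0.406%): FOXM1, PLK1, AURKB, UBE2C and KIF4A. FOXM1, the transcription factor of G2 and mitosis, was at 11.3, 13.2 and 12 CPM in the induced and 15.3 to 18.7 (median 18) CPM in the knockdown libraries, which did not overlap, and at 92.4, 81.9 and 76.8 CPM in the non-induced ones. Its direct difference was 0.51 (95% interval 0.31 to 0.70, adjusted p = 0.0296), while its log2 fold change against non-induced cells was -2.27 ± 0.081. For PLK1 the direct difference was 0.58 (0.35 to 0.82, adjusted p = 0.0397), for the kinase AURKB 0.55 (0.34 to 0.77, adjusted p = 0.0311), for the ubiquitin-conjugating enzyme UBE2C 0.48 (0.30 to 0.66, adjusted p = 0.0264) and for the kinesin KIF4A 0.37 (0.21 to 0.52, adjusted p = 0.047). Each of the 5 was more than 2 log2 units below its non-induced level in the same libraries. Of the 49 genes, 38 had a direct difference above 0 (77.6%, against 48.4% of all genes tested), with a list median of 0.11. This was not particular to mitosis: over the 21 lists the share ran from 29.4% (p53 targets) to 85.0% (SASP proteases), with 80.0% for DNA replication. In single knockdown libraries the mitosis median against induced cells ran from -0.034 to 0.34. No test of the list was run. The call of FOXM1 was lost without induced T (0.225), induced A (0.129), induced B (0.162), shXPO7_3 A (0.0532), shXPO7_5 T (0.082) or shXPO7_5 B (0.0537) (adjusted p in brackets), and also with upper-quartile factors (0.0626) and in the fit to only the groups compared (0.0536). The other 4 each lost the call without induced T, A or B, with adjusted p of 0.136 to 0.3, with upper-quartile factors (0.0626 to 0.0824) and in the fit to only the groups compared (0.0536 to 0.116), and KIF4A also with no filter (0.137).

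Genes of DNA replication fell as well. Of 40 tested genes, 39 were called lower (97.5%, background 29.4%) and none higher, and the one not called was RPA2. The median was -1.53 in the knockdown and -1.56 in induced cells. TK1, thymidine kinase, was at 48.9, 49.1 and 45.3 CPM in non-induced and 5.25 to 8.57 (median 6.75) CPM in knockdown libraries (log2 fold change -2.82 ± 0.10, adjusted p = 1.91e-10). It was at 4.59, 4.79 and 5.06 CPM in induced cells, and the direct difference of 0.48 did not pass the threshold (adjusted p = 0.0893), but did with the correction for GC content and length (0.36, adjusted p = 0.0159), with DESeq2 (0.5, adjusted p = 0.012) and without shXPO7_5 A (0.54, adjusted p = 0.032). CLSPN, a replication checkpoint adaptor, and PRIM1, the primase subunit, fell by 2.47 and 2.44 on the log2 scale. RRM2, a subunit of ribonucleotide reductase, was the member called higher in knockdown than in induced cells: it was at 30.1, 30 and 31.5 CPM in induced and 37.6 to 43 (median 40.6) CPM in knockdown libraries (direct difference 0.40, 95% interval 0.26 to 0.55, adjusted p = 0.0245), against 171, 157 and 158 CPM in the non-induced ones. The call was lost without induced T (0.17), induced A (0.161), induced B (0.106), shXPO7_3 A (0.0562) or shXPO7_5 T (0.0657) (adjusted p in brackets), and also with upper-quartile factors (0.0583) and in the fit to only the groups compared (0.0572). E2F1, the transcription factor of S phase entry, fell from 20.7, 18.4 and 16.3 CPM to 6.64 to 8.74 (median 7.03) CPM (log2 fold change -1.35 ± 0.094), and its direct difference was 0.0057 (-0.21 to 0.22).

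An E2F motif (TTCCCGC or TTCGCGC or TTGCCGC or TTGGCGC on either strand) was present in 27 of 35 replication promoters (77.1%) and in 20.2% of all. MCM3, a subunit of the replicative helicase (chr6:52284743-52284892, - strand), and E2F1 itself (chr20:33686386-33686535, - strand) are shown with the motif in capitals, again as the 150 bases before the start on the gene's strand in GRCh38.p14.
MCM3: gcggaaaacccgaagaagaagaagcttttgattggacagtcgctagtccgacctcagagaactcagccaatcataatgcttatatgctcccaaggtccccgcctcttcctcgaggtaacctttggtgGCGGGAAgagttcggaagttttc
E2F1: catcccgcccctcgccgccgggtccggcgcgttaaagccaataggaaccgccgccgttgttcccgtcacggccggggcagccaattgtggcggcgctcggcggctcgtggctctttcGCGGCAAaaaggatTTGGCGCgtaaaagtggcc
MCM3 was at 97.5, 89.9 and 85 CPM in the non-induced and 29.1 to 34 (median 31.2) CPM in the knockdown libraries (log2 fold change -1.54 ± 0.062), without overlap.

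Of 25 DNA repair genes, 21 were called lower and none higher (median -1.63, and -1.80 in induced cells). RAD54L and POLQ, which act in repair of double-strand breaks, fell by 2.59 and 2.57, and FANCD2, of the Fanconi anemia pathway, fell by 2.39 on the log2 scale. ATM, ATR, CHEK1 and PALB2 were not called. No repair gene was called between knockdown and induced cells.

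CDKN1A, CDKN2A and CDKN2B, which encode inhibitors of cyclin-dependent kinases, were high in the knockdown. CDKN1A (p21CIP1) was at 543, 496 and 452 CPM in the non-induced libraries, at 1101, 1116 and 1194 CPM in the induced ones and at 924 to 1165 (median 1052) CPM in the knockdown. All 6 knockdown libraries were above the non-induced ones and they overlapped with the induced ones. The log2 fold change against non-induced cells was 1.09 ± 0.085 (adjusted p = 3.37e-07), with 1.11 for shXPO7_3 and 1.07 for shXPO7_5, next to 1.19 for induced cells. The direct difference was -0.11 (95% interval -0.28 to 0.069, adjusted p = 0.571), so a difference below -0.28 on the log2 scale is outside the interval. Corrected for GC content and length, the direct difference was -0.20 and passed the threshold (adjusted p = 0.0187). It also passed with this correction and the library letter as a block together (-0.20, adjusted p = 0.00841). With the other scalings and filters, the fit to only the groups compared and DESeq2 the adjusted p was 0.532 to 0.725. CDKN2A was at 26.8, 28.2 and 23 CPM in non-induced, 51.5, 52.9 and 49.2 CPM in induced and 50.5 to 77.2 (median 57.9) CPM in knockdown libraries (log2 fold change 1.20 ± 0.10); these counts do not separate p16INK4a from the ARF transcript of the same gene. CDKN2B rose furthest, from 12.9, 14.7 and 14.8 CPM to 242 to 314 (median 282) CPM (log2 fold change 4.31 ± 0.094), with 318, 318 and 308 CPM in induced cells.

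Over the 24 genes of G1 control, 9 were called higher and 12 lower. The repressor E2F7 rose by 1.82 and the inhibitor CDKN2C (p18INK4c) fell by 2.75 on the log2 scale. CCNE2 and RBL1 fell by 2.51 and 1.95, while RB1, CCNE1 and CDKN2D were not called. CCND2, a D-type cyclin, was the only one of the 24 called in the direct comparison. It was at 12.4, 12.3 and 11.2 CPM in non-induced, 27.3, 25.3 and 27.1 CPM in induced and 17.8 to 22.5 (median 19.4) CPM in knockdown libraries. It was thus less far above non-induced cells in the knockdown (direct difference -0.41, 95% interval -0.56 to -0.27, adjusted p = 0.0242). The call was lost without induced T (0.17), induced A (0.129), induced B (0.148), shXPO7_3 A (0.0562) or shXPO7_5 T (0.0509) (adjusted p in brackets), and also with upper-quartile factors (0.0663) and in the fit to only the groups compared (0.0513).

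p53 targets moved in both directions. Of 34 tested, 15 were called higher and 6 lower (background 26.8% and 29.4%), with a median of 0.17 in the knockdown (0.10 with upper-quartile factors) and 0.33 in induced cells. GDF15, a stress-induced member of the TGF-beta family, went from 23.1, 22.6 and 21.2 CPM to 284 to 411 (median 316) CPM (log2 fold change 3.86 ± 0.11) and PLK3, a stress kinase, and PMAIP1 (NOXA) rose by 2.01 and 1.53. DDB2 and GADD45A fell by 0.30 and 0.24. The list's median direct difference from induced cells was -0.11, with 24 of 34 genes below 0 and none called. The share above 0 was 29.4%, against 48.4% of all genes tested.

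Nuclear lamina and chromatin genes fell in knockdown cells, with 20 of 26 called lower and 3 higher (76.9% and 11.5%, against 29.4% and 26.8% of all genes). Their median was -0.83, and -0.91 in induced cells. LMNB1, lamin B1, was at 74.2, 80.5 and 79.3 CPM in non-induced, 9.43, 9.14 and 9.18 CPM in induced and 10.3 to 12.6 (median 11) CPM in knockdown libraries (log2 fold change -2.81 ± 0.067, adjusted p = 1.13e-11). The knockdown libraries lay above the induced ones without overlap, by a direct difference of 0.27 that did not pass the threshold (adjusted p = 0.149). HMGB2, a chromatin protein, fell from 72.1, 81 and 83 CPM to 8.10 to 10.4 (median 9.10) CPM. EZH2, the methyltransferase of Polycomb, fell by 1.54 and HJURP, the chaperone of centromeric histone, by 2.16 on the log2 scale. HMGA2, a protein of senescence-associated heterochromatin, rose from 560.4, 599 and 661 CPM to 1090.0 to 1468 (median 1312) CPM (log2 fold change 1.10 ± 0.10), and MACROH2A1 by 0.41.

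Cytokines and chemokines of the SASP were high in the knockdown. Of 31 on the list, CCL3 was not analysed here, and CCL8, CXCL14 and IL7 did not pass the filter on low counts. Of the 27 tested 21 were called higher and 5 lower (77.8% and 18.5%, against 26.8% and 29.4% of all genes). 9 of the 27 had fewer than 10 counts in every non-induced library and so passed through the induced groups. They are part of these counts and of the median, which was 2.79, next to 2.94 in induced cells. With 0.5 CPM added to each value, the list median was 1.54 to 1.84 in single knockdown libraries and 1.63 to 1.69 in induced ones. IL1B was at 0.154, 0.389 and 0.227 CPM in the non-induced libraries and 112 to 139.5 (median 126) CPM in the knockdown, with 136, 138 and 137 CPM in the induced ones. This is a log2 fold change of 8.88 ± 0.15 (adjusted p = 2.49e-12), and the direct difference from induced cells was -0.11 (95% interval -0.29 to 0.067). IL1A, the membrane-bound interleukin-1 that starts the SASP cascade, went from 0.0927, 0.316 and 0.198 CPM to 19.4 to 31.1 (median 24.9) CPM (log2 fold change 6.86 ± 0.28), and the chemokine CXCL8 (IL-8) from 1.76, 2.55 and 2.44 CPM to 296 to 463 (median 372) CPM (log2 fold change 7.36 ± 0.18). For both, the lowest knockdown libraries lay under the induced range, which was 32.4, 30.1 and 29.6 CPM for IL1A and 456, 491 and 424 CPM for CXCL8, and the direct differences of -0.30 (-0.64 to 0.035) and -0.29 (-0.54 to -0.039) did not pass the threshold (adjusted p = 0.461 and 0.348). IL6 rose more modestly, from 2.41, 2.45 and 2.92 CPM to 6.79 to 8.41 (median 7.70) CPM (log2 fold change 1.56 ± 0.10), with 8.34, 9.39 and 8.65 CPM in induced cells. CSF3, the granulocyte colony-stimulating factor, had 0 counts in the non-induced libraries and 3.17 to 3.90 (median 3.65) CPM in the knockdown, at least 131-fold higher when 3 counts are allowed for the non-induced group as a whole.

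Other members fell. CXCL12, a chemokine of resting fibroblasts, was at 27.3, 25.6 and 26.1 CPM in non-induced and 0.543 to 0.846 (median 0.763) CPM in knockdown libraries (log2 fold change -5.20 ± 0.12). IL32 and CSF1 fell by 1.58 and 1.48. None of the 27 was called between knockdown and induced cells, and the median direct difference was -0.07 (0.019 without induced A).

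The kappaB motif (GGG, any 2 bases and TTTCC, on either strand) was found in 8 of 21 SASP cytokine promoters (38.1%), in 24.0% of those of the NF-kB and IL-1 list and in 2.07% of all. 2 promoters of cytokines that rose are shown with the motif in capitals, chosen after the values were seen: IL6 (chr7:22727050-22727199, + strand) and CXCL1 (chr4:73869243-73869392, + strand), each as the 150 bases before the start in GRCh38.p14.
IL6: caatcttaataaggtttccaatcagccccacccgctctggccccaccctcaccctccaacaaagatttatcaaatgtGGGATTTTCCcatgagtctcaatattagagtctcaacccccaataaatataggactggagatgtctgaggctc
CXCL1: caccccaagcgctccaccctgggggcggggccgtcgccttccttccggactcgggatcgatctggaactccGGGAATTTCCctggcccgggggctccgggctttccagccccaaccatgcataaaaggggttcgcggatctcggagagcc
CXCL1, a neutrophil chemokine, was at 0.247, 0.340 and 0.368 CPM in the non-induced and 18.2 to 28.4 (median 21.3) CPM in the knockdown libraries, with 24.2, 23 and 18.8 CPM in induced cells.

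Among 28 genes of the NF-kB and IL-1 response, 15 were called higher and 8 lower (53.6% and 28.6%, against 26.8% and 29.4% of all genes). Their median was 0.35, and 0.26 in induced cells, and IL1RN did not pass the filter on low counts. PTGS2, the prostaglandin synthase COX-2, was at 1.08, 1.09 and 1.16 CPM in non-induced libraries, 42.1, 48.3 and 48.6 CPM with shXPO7_3 and 23.6, 28.1 and 20.4 CPM with shXPO7_5 (log2 fold change 4.90 ± 0.14). BCL2A1 and TNFAIP6 rose by 4.14 and 2.76, and NFKBIZ, an IkB protein, went from 7.76, 8.02 and 9.61 CPM to 18.6 to 28.6 (median 23.3) CPM. TNFAIP8, TRAF1 and TNFAIP3 (A20), an inhibitor of NF-kB, fell by 1.38, 1.04 and 0.56. NFKBIZ was at 31.8, 31.1 and 27.5 CPM in induced cells, and its direct difference of -0.36 (-0.62 to -0.089) did not pass the threshold (adjusted p = 0.264).

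SASP proteases and their inhibitors rose as well, with 17 of 20 called higher and 2 lower (85.0% and 10.0%, against 26.8% and 29.4% of all genes). Their median was 1.33, and 1.32 in induced cells. MMP12 and MMP13 did not pass the filter on low counts. MMP9 had fewer than 10 counts in every non-induced library and so passed through the induced groups. MMP1, interstitial collagenase, was at 925, 884 and 873 CPM in non-induced and 4311 to 5078 (median 4748) CPM in knockdown libraries (log2 fold change 2.40 ± 0.057). MMP3, stromelysin, rose from 4.51, 3.72 and 4.14 CPM to 114 to 161 (median 137) CPM (log2 fold change 5.03 ± 0.10), MMP10 by 5.88 and the aggrecanase ADAMTS4 by 2.84. ADAMTS1 and TIMP2 fell by 0.64 and 0.35. SERPINB2 (PAI-2) was called higher than in induced cells, at 236 to 272 (median 245) CPM in the knockdown and 189, 205 and 193 CPM in the induced libraries, which did not overlap (direct difference 0.36, 95% interval 0.22 to 0.50, adjusted p = 0.0289). The call was lost without induced T (0.223), induced A (0.143), induced B (0.162), shXPO7_3 A (0.0587), shXPO7_3 B (0.0533) or shXPO7_5 T (0.0731) (adjusted p in brackets), and also in the fit to only the groups compared (0.0572).

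Of 34 growth factors and their binding proteins tested (IGF1, IGFBP1 and TGFA did not pass the filter), 20 were called higher and 9 lower. These are 58.8% and 26.5%, against 26.8% and 29.4% of all genes (median 0.66, and 0.82 in induced cells). AREG and PDGFB had fewer than 10 counts in every non-induced library and so passed through the induced groups. BMP2 went from 2.26, 1.87 and 1.5 CPM to 144 to 160.2 (median 155) CPM (log2 fold change 6.35 ± 0.11) and the EGF receptor ligand EREG from 9.98, 10.9 and 13.7 CPM to 196 to 349 (median 286) CPM (log2 fold change 4.58 ± 0.15). AREG, another EGF receptor ligand, had 2 counts in all over the non-induced libraries and 3.33 to 4.64 (median 3.81) CPM in the knockdown, a ratio of 217 with a 95% counting interval of 59.9 to 1790. TGFB2 rose by 0.73. GAS6, FGF7 and BDNF fell by 2.23, 1.79 and 1.54, and IGFBP3 fell from 112, 98.7 and 94.8 CPM to 53.6 to 71.5 (median 61.1) CPM. FGF7 varied with the library, at 15.4, 25.3 and 35.6 CPM in non-induced T, A and C.

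Genes that report RAS signalling were high in the knockdown. Of 32 genes of RAS and MAPK output, 24 were called higher and 3 lower (75.0% and 9.38%, against 26.8% and 29.4% of all genes). Their median was 1.09, and 1.0 in induced cells. DUSP6, the ERK phosphatase and feedback inhibitor, was at 44.3, 43.1 and 43.2 CPM in non-induced, 483, 493 and 488 CPM in induced and 488 to 516 (median 509.5) CPM in knockdown libraries (log2 fold change 3.53 ± 0.053), and its direct difference was 0.047 (-0.048 to 0.14). SPRY4, another feedback inhibitor, went from 56.3, 48.5 and 45.8 CPM to 271 to 330.1 (median 304) CPM, and the immediate early genes EGR3 and EGR2 rose by 5.27 and 3.58 on the log2 scale. FOSL1, DUSP10 and DUSP8 fell by 1.21, 0.91 and 0.59. HRAS was at 1092, 987 and 879.6 CPM in non-induced, 1853, 1932 and 2005 CPM in induced and 1817 to 2328 (median 1973) CPM in knockdown libraries (log2 fold change 1.04 ± 0.094), and whether reads of the ER:RAS transgene are among them was not tested. No gene of the list was called between knockdown and induced cells.

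Matrix genes showed no common direction and contractile genes fell. Of 38 matrix genes, 11 were called higher and 15 lower (28.9% and 39.5%, against 26.8% and 29.4% of all genes). Their median was -0.088 in the knockdown, against -0.25 in induced cells. The knockdown median was -0.16 with upper-quartile factors, -0.012 and -0.14 without non-induced T and C, -0.15 and -0.043 without shXPO7_3 T and A, and -0.044 without shXPO7_5 A. CEMIP, a hyaluronan-degrading factor, fell from 102, 102 and 91.3 CPM to 1.2 to 2.76 (median 1.81) CPM, aggrecan (ACAN) by 5.20 and elastin (ELN) by 4.43 on the log2 scale. COL5A3 rose from 50.8, 49.5 and 43.1 CPM to 128 to 175 (median 148) CPM and HAS2, a hyaluronan synthase, by 0.89. POSTN rose by 1.44 ± 0.34, with a wide spread over the knockdown libraries (826 to 2026 (median 1424) CPM). The main fibrillar collagens were not called against non-induced cells: COL1A1 had a log2 fold change of -0.071 ± 0.11 (adjusted p = 0.614) and COL3A1 0.066 ± 0.052 (adjusted p = 0.302). COL3A1 was at 1339, 1336 and 1220.0 CPM in non-induced, 1179, 1095 and 1098 CPM in induced and 1297 to 1466 (median 1355) CPM in knockdown libraries, and it was called higher than in induced cells (direct difference 0.27, 95% interval 0.16 to 0.39, adjusted p = 0.0437). The call was lost without induced T (0.149), induced A (0.263), induced B (0.213), shXPO7_3 T (0.0597), shXPO7_3 A (0.0705), shXPO7_3 B (0.0749), shXPO7_5 T (0.0929) or shXPO7_5 B (0.0704) (adjusted p in brackets), and also with upper-quartile factors (0.107), with no filter (0.0727) and in the fit to only the groups compared (0.0831). COL1A1 had a direct difference of 0.38 (0.14 to 0.63, adjusted p = 0.186), which passed the threshold with no filter on low counts (0.37, adjusted p = 0.0203). Of 13 contractile genes 11 were called lower (84.6%, against 29.4% of all genes) and none higher (median -1.29, and -1.24 in induced cells). ACTA2, smooth muscle actin, was at 385, 356 and 345 CPM in non-induced and 137 to 202 (median 157) CPM in knockdown libraries. LMOD1, CNN1 and MYLK fell by 3.12, 1.53 and 1.30.

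Of the 10 fibroblast markers 5 were called lower and 1 higher. Decorin (DCN) fell from 927, 1028 and 1006 CPM to 74.3 to 92.5 (median 85.3) CPM and was at 92.6, 96.2 and 98 CPM in induced cells, and PDGFRB, a receptor for platelet-derived growth factor, was higher in the knockdown (284 to 352 (median 318) CPM) than in induced (218, 213 and 222 CPM) and non-induced (271, 241 and 222 CPM) cells, with a direct difference of 0.55 (0.36 to 0.74, adjusted p = 0.0236) that was lost without induced T (0.144), induced A (0.159), induced B (0.106) or shXPO7_5 T (0.0648) (adjusted p in brackets), and also with upper-quartile factors (0.053). KRT19, the most abundant of the epithelial markers, fell from 36.5, 34.1 and 30.3 CPM to 1.09 to 2.54 (median 1.92) CPM. In bulk RNA, fewer cells of a kind and less RNA per cell cannot be told apart.

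The lysosome and autophagy list had 21 of 36 genes higher and 11 lower (58.3% and 30.6%, against 26.8% and 29.4% of all genes). Its median was 0.23, and 0.15 in induced cells. ATP6V0D2 had fewer than 10 counts in every non-induced library and so passed through the induced groups. NPC1, which exports cholesterol from lysosomes, rose from 24, 21.6 and 23.3 CPM to 77 to 98.5 (median 88.5) CPM, alpha-galactosidase A (GLA) by 1.17 and cathepsin K (CTSK) by 1.07. FUCA1, GAA and TPP1 fell by 1.30, 0.56 and 0.48. GLB1, the source of senescence-associated beta-galactosidase activity, was at 101, 93.8 and 86.5 CPM in non-induced and 102 to 124 (median 109.8) CPM in knockdown libraries, a rise of 0.24 ± 0.071 (adjusted p = 0.011). Without non-induced C it was 0.19 (adjusted p = 0.0602) and with upper-quartile factors 0.17 (adjusted p = 0.12).

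Smaller shifts were found in the metabolic and stress lists. Of 24 cholesterol and fatty acid synthesis genes 12 were higher and 2 lower (median 0.31, and 0.30 in induced cells), and INSIG1, which holds back the SREBP pathway, was called higher than in induced cells (105, 106 and 109 CPM in induced and 119.9 to 132 (median 129.6) CPM in knockdown libraries, direct difference 0.26, 95% interval 0.15 to 0.37, adjusted p = 0.0437). The call was lost without induced T (0.3), induced A (0.253), induced B (0.162), shXPO7_3 T (0.0686), shXPO7_3 A (0.0943), shXPO7_3 B (0.0893) or shXPO7_5 T (0.116) (adjusted p in brackets), and also with upper-quartile factors (0.0771), with no filter (0.239) and in the fit to only the groups compared (0.106). IDI1 rose by 0.77, and LSS fell by 0.98. Of 21 ER stress and ATF4 genes 12 were higher (57.1%, against 26.8% of all genes) and none lower (median 0.21, and 0.25 in induced cells). They were led by TRIB3 (1.20), the amino acid transporter SLC7A5 (1.19) and the chaperone DNAJB9 (0.88).

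In the BCL2 family 7 of 14 genes were higher and 3 lower. MCL1, which protects against apoptosis, rose from 311, 333 and 325 CPM to 1032 to 1220.0 (median 1137) CPM, and BCL2 and BCL2L11 (BIM) fell by 1.57 and 0.83 on the log2 scale. BMF, a BH3-only promoter of apoptosis, was at 15.8, 15.1 and 15 CPM in non-induced, 16.8, 17.9 and 18.8 CPM in induced and 25.2 to 33.7 (median 27.9) CPM in knockdown libraries, above both other groups in all 6 (direct difference 0.69, 95% interval 0.51 to 0.88, adjusted p = 0.00842). The call was lost without induced T (0.083), induced A (0.0805) or induced B (0.071) (adjusted p in brackets).

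Interferon-stimulated genes showed no common direction, with 6 of 36 called higher and 9 lower (16.7% and 25%, against 26.8% and 29.4% of all genes). OASL had fewer than 10 counts in every non-induced library and so passed through the induced groups. The median of the list was 0.085 in the knockdown and -0.29 in induced cells. The median direct difference was 0.18, with 28 of 36 genes above 0 (77.8%, against 48.4% of all genes tested) and none called. Over the 21 lists this share ran from 29.4% to 85.0%. The median against non-induced cells turned with the library left out: it was -0.15 without non-induced T, -0.12 without A and 0.21 without C, and 0.00039 without shXPO7_5 B. IRF1, a transcription factor, and USP18 rose by 0.78 and 0.44, and IFIT2, IFIT1 and OAS3 fell by 1.96, 1.58 and 1.38. IFIT1 varied over the non-induced libraries (5.04, 7.46 and 15 CPM in T, A and C). Of 26 genes of immune recognition 10 were higher and 6 lower (38.5% and 23.1%, against 26.8% and 29.4% of all genes). The NK cell ligands ULBP1 and ULBP2 and PVR rose by 1.03, 0.83 and 0.76, and VCAM1, PDCD1LG2 (PD-L2) and PSMB9 fell by 2.41, 1.44 and 1.41.

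Of 13 helix-loop-helix factors 6 were higher and 2 lower (46.2% and 15.4%, against 26.8% and 29.4% of all genes). HEY1 and HES1, targets of Notch, rose from 0.865, 0.583 and 0.538 CPM to 10.5 to 12.4 (median 11.8) CPM and from 2.13, 1.75 and 1.53 CPM to 20.7 to 23.5 (median 22) CPM, BHLHE40 rose by 2.70 and ID1 by 0.50, and ID2, an inhibitor of helix-loop-helix factors such as TCF3, fell by 1.56. HES1 was at 17.7, 16.3 and 16.8 CPM in induced cells (direct difference 0.37, 95% interval 0.19 to 0.55, adjusted p = 0.0778), which passed the threshold with DESeq2 (0.39, adjusted p = 0.00459), with the correction for GC content and length (0.36, adjusted p = 0.0102) and without shXPO7_5 A (0.39, adjusted p = 0.049). Among 30 nuclear transport receptors 6 were higher and 14 lower. XPO5, KPNA1 and KPNA6 rose by 0.42, 0.24 and 0.20 (KPNA6 by 0.13 with upper-quartile factors, adjusted p = 0.118), and XPO7 apart, IPO9 and KPNA2 fell most, by 0.57 and 0.52, so that no receptor other than XPO7 fell by 1 or more on the log2 scale.

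Over genes with a symbol that averaged 2 or more in log2 CPM and did not overlap between the groups, those with the largest rise in the knockdown were CST1, LCE1F, PRSS22, IL1B, CXCL8, TNFSF15, GPR183, PDZD2, IL1A and DCSTAMP. CST1, the protease inhibitor cystatin SN, had 0 counts in the non-induced libraries and 7.19 to 10.1 (median 8.33) CPM in the knockdown, at least 302-fold higher on the same floor. LCE1F and PRSS22 had 1 count each over all non-induced libraries, and their ratios were 978 (95% counting interval 175 to 38700) and 801 (144 to 31600). TNFSF15, a cytokine of the TNF family, went from 0.649, 0.729 and 0.453 CPM to 74.5 to 105 (median 90.1) CPM, the receptor GPR183 from 0, 0.0243 and 0.113 CPM to 5.11 to 8.44 (median 6.28) CPM, PDZD2 from 0.124, 0.0729 and 0.113 CPM to 11.6 to 15.7 (median 13.3) CPM, and DCSTAMP, known from cell fusion in osteoclasts, from 0.154, 0.146 and 0.0850 CPM to 11.9 to 15.3 (median 13) CPM. PDZD2 was also higher in the knockdown than in induced cells (9.37, 9.68 and 7.97 CPM, direct difference 0.57, adjusted p = 0.0158, lost without induced T (0.0999), induced A (0.0805) or induced B (0.102) (adjusted p in brackets)). Under the same limits the largest falls were those of CEMIP, ACAN, CXCL12, SLC7A14, GDF5, TOX, ELN, KIT, PRUNE2 and CORIN. GDF5, a growth factor of the BMP family, fell from 25.6, 24.3 and 20.3 CPM to 0.543 to 1.03 (median 0.795) CPM, KIT, a receptor tyrosine kinase, from 12.5, 14.7 and 14.9 CPM to 0.539 to 0.966 (median 0.657) CPM, and the membrane protease CORIN from 23.9, 23.5 and 24.9 CPM to 1.06 to 1.63 (median 1.27) CPM. SLC7A14, the transcription factor TOX and PRUNE2 fell by 5.04, 4.47 and 4.25 on the log2 scale.

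**Figure D3:**
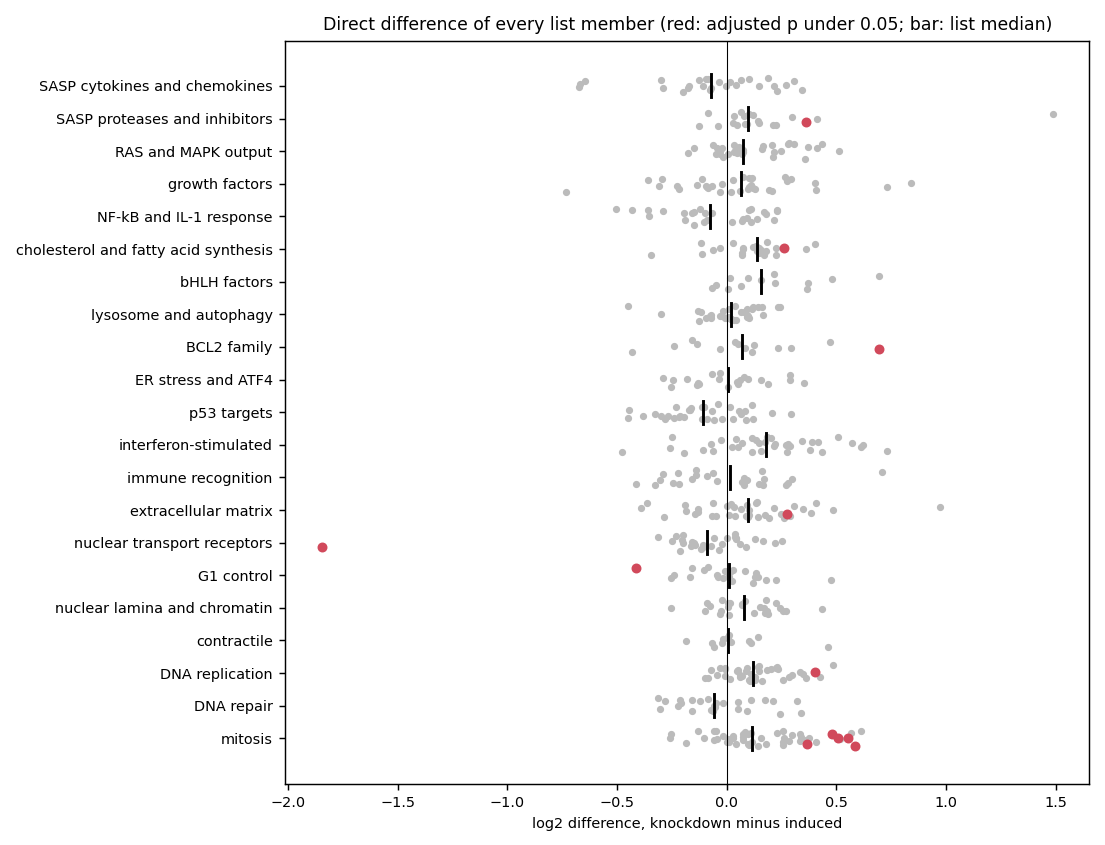
Log2 difference of knockdown minus induced cells for every tested member of the 21 lists (points; red where the adjusted p is under 0.05, bars for list medians). The list medians lie between -0.11 and 0.18, and the point at the far left is XPO7 (-1.85).

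The genes furthest apart between knockdown and induced cells came from outside most of these lists. Of the genes called higher that averaged 1 or more in log2 CPM, the 10 with the largest difference and no overlap were SUSD2, ANO1, MMP11, CTSH, KCNH6, ZBTB46, CYGB, KIF18B, DLL4 and LRRC32. Without a knockdown lacking 4OHT, these differences are of levels, and a changed response to induction was not tested. SUSD2 was at 2.26, 1.82 and 2.07 CPM in non-induced, 4.07, 4.22 and 4.46 CPM in induced and 6.73 to 10.3 (median 8.34) CPM in knockdown libraries. It was thus further above non-induced cells in the knockdown (direct difference 1.0, 95% interval 0.77 to 1.22, adjusted p = 0.00403). The same order of the 3 groups was seen for MMP11 (5.32, 6.92 and 5.72, then 19.2, 21.7 and 22.2, then 30.2 to 47.2 (median 38.7) CPM), KCNH6, ZBTB46 and CYGB, a globin of fibroblasts (11.9, 11.2 and 9.49, then 37.1, 37.7 and 37.5, then 54.3 to 68.9 (median 62.6) CPM). ANO1, a chloride channel, and KIF18B, a kinesin of mitosis, were lower in the knockdown than in non-induced cells but not as low as in induced cells: ANO1 was at 37, 37.2 and 37.2 CPM in non-induced, 5.06, 5.67 and 5.67 CPM in induced and 8.27 to 12.8 (median 11.1) CPM in knockdown libraries (direct difference 0.98, adjusted p = 0.00842). DLL4, a Notch ligand, was at 11.2, 9.64 and 11 CPM and 9.10, 9.96 and 9.56 CPM without and with induction, which overlapped, and at 14.1 to 17.7 (median 15.3) CPM in the knockdown (direct difference 0.72, 95% interval 0.52 to 0.93, adjusted p = 0.00982). CTSH (cathepsin H) had a like pattern, and LRRC32 (GARP), which binds latent TGF-beta, was not called against non-induced cells (log2 fold change 0.13, adjusted p = 0.287, and 0.0494 with the correction for GC content and length) while it was lower in induced ones (22.1, 23.2 and 21.4 CPM, against 37.5, 32.7 and 28.8 CPM).

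Of the 23 genes called lower than in induced cells, XPO7 had the largest difference of those named by the rule (-1.85, 95% interval -1.97 to -1.72, adjusted p = 1.12e-08). ABCA3, a lipid transporter, went from 0.680, 0.704 and 0.510 CPM in non-induced to 3.63, 3.23 and 4.22 CPM in induced and 1.95 to 2.60 (median 2.33) CPM in knockdown libraries (direct difference -0.70, adjusted p = 0.0311). The axon guidance protein NTNG1 and the antisense RNA OSTN-AS1 were also less far above non-induced cells than in induced cells (direct differences -0.49 and -0.61). Without a stated strand setting the reads of OSTN-AS1 cannot be told from those of a gene on the other strand. RELN (reelin), EPB41 and CYRIA were further below non-induced cells in the knockdown than in induced cells. RELN was at 255, 235 and 236 CPM in non-induced, 21, 16.7 and 18.3 CPM in induced and 10.9 to 16.4 (median 13.2) CPM in knockdown libraries. PAPPA, a protease that cleaves IGF-binding proteins, was at 171, 164 and 174 CPM in non-induced, 239, 218 and 189 CPM in induced and 122 to 175 (median 158) CPM in knockdown libraries (direct difference -0.49, 95% interval -0.68 to -0.31, adjusted p = 0.0256), and against non-induced cells it was not called (log2 fold change -0.15, adjusted p = 0.15), but it was lower with upper-quartile factors (-0.22, adjusted p = 0.0304) and without shXPO7_5 A (-0.19, adjusted p = 0.0482). ALDH3A2 and NR4A2, an orphan nuclear receptor, were lower than in both other groups, with direct differences of -0.56 and -0.49.

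Of these 20 genes, XPO7 was called each time 1 library was left out, while for the other 19 the call was lost without at least 1 library. Without induced T, A and B, 0, 0 and 1 of the 19 were called, the 1 being SUSD2 without B. The number was 13, 9 and 13 without shXPO7_3 T, A and B, and 10, 19 and 15 without shXPO7_5 T, A and B, and the highest adjusted p was 0.292. Of the 11 list members called apart from XPO7, none was called without induced T, A or B, 6, 1 and 7 without shXPO7_3 T, A and B, and 1, 11 and 6 without shXPO7_5 T, A and B. With upper-quartile factors 13 of the 19 and 2 of the 11 were called, in the fit to only the groups compared 10 and 1, with no filter 19 and 8, and with the correction for GC content and length 17 and 11.

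**Figure D4:**
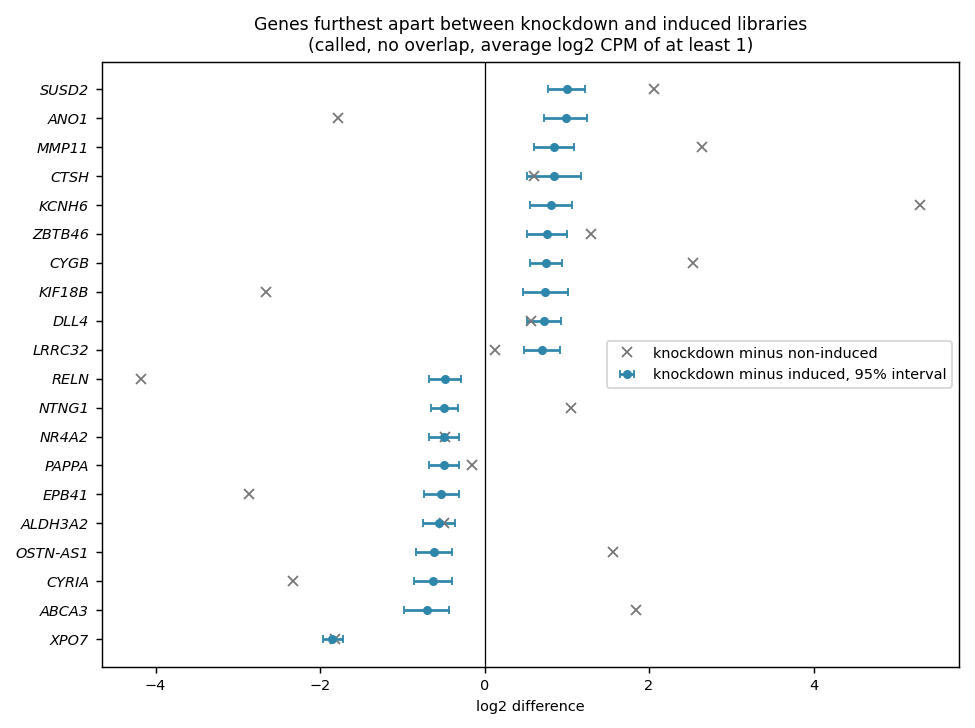
Log2 difference of knockdown minus induced cells with its 95% interval (points and bars), and of knockdown minus non-induced cells (crosses), for the 10 genes furthest apart in each direction among called genes without overlap that averaged 1 or more in log2 CPM. Of these, SUSD2 is furthest up (1.0) and XPO7 furthest down (-1.85); for most genes the cross lies much further from 0 than the point.

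Few genes were called between the 2 shRNAs. Between shXPO7_5 and shXPO7_3, 2 of 15284 genes were called (0.0131%, with 0.00654% higher and 0.00654% lower): XPO7, which was 1.89-fold higher with shXPO7_5 (log2 difference 0.92, adjusted p = 0.000387), and PTGS2, which was lower by 0.95 on the log2 scale (adjusted p = 0.0246). PTGS2 was at 44.6, 46.2 and 37.8 CPM in induced cells, overlapping with shXPO7_3 and above shXPO7_5. An unadjusted p under 0.05 was found for 1819 genes. The count of called genes was 27 with DESeq2, 13 with the correction for GC content and length and 0 in the fit to only the groups compared. Without shXPO7_3 A or B, or shXPO7_5 T or B, it was 1, and without shXPO7_3 T it was 4.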

How the data were processed

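Group labels came from GEO. The authors deposited whole-number counts per gene that carry no normalization. Tools listed for them by the submitters, without roles, are CASAVA 1.8.4, TopHat2 2.0.11 and featureCounts 1.18.0, with build hg19, also written GRCh37; annotation and strand setting: not given in the sources used here. Of 62069 genes, 49322 had a symbol (99.48% of counts), and 92 spike-in entries at 0 counts were dropped. Libraries of 1 group differed beyond counting noise (chi-square per gene between 4.57 and 61.7), so none was treated as a repeat.

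Quasi-likelihood models were fitted with edgeR 4.0.16 (limma 3.58.1, R 4.3.3) to all 12 libraries in 4 groups, without covariates, for the 15284 genes that filterByExpr kept, after TMM scaling. The knockdown effect is the mean of both shRNAs. P-values were Benjamini-Hochberg adjusted. Fits were also run on simulated counts in which few genes changed, equally many up and down. That setting does not test scaling where more than every other gene is called.

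The groups compared, the 21 gene lists (594 genes, 583 tested) and the rule for named genes were chosen with earlier results of these data known. The rule took 36 fixed genes, up to 3 list members each way with the largest change among genes called without overlap at an average log2 CPM of at least 1, the 10 largest each way over all genes at 2 or more, the 10 largest each way between knockdown and induced cells, and genes called between the shRNAs. Some genes of the rule are not reported here. Genes outside it (the promoters shown, markers, members not called and the few list members called against induced cells) were named after their values were seen. Counting intervals cover counting error only. As alternatives, RLE or upper-quartile scaling was used, filtering was dropped or set to 1 CPM in at least 6 libraries, the library letter was a block, GC content and length were corrected for (97.3% of genes had both values), only the groups compared were fitted, DESeq2 1.42.0 was run, a log2 limit of 1 was set, and each library was left out.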

Additional observations from a re-analysis of the deposited data

Results flagged for a closer look

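In the 133 named genes tested for it, 1 of the 6 knockdown libraries stood far from the others in 7 genes. At the limit used, chance alone flags about 1 gene in 20, which is close to the rate found. ShXPO7_5 B was the highest for E2F1 (8.74 CPM, with 7.34 next and 6.64 lowest), GDF15 (411 CPM, with 329 next and 284 lowest) and ID1 (13.7 CPM, with 11 next and 10.3 lowest). ShXPO7_5 A was the highest for BCL2L11 (2.24 CPM, with 1.78 next and 1.64 lowest) and TOX (1.21 CPM, with 0.710 next and 0.522 lowest). ShXPO7_3 B was the highest for ADAMTS1 (159.6 CPM, with 139 next and 132 lowest) and the lowest for AURKB (3.99 CPM, with 4.95 next and 5.32 highest).

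The effect of the shRNAs differed between them, by a test of the difference itself, for XPO7 (log2 difference of shXPO7_5 minus shXPO7_3 0.916, edgeR adjusted p = 0.000387) and PTGS2 (-0.947, adjusted p = 0.0246), in 3 against 3 libraries each without overlap. In the fit to only the groups compared neither gene was called. With 1 library left out, 1 to 4 genes were called between the shRNAs.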

How the results depend on the processing

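Against non-induced cells, 1999 of 2013 values of named genes kept their direction and their side of the threshold. GLB1 lost its call with upper-quartile factors, the replicate block and without non-induced C, and KPNA6 with upper-quartile factors. PAPPA (2 alternatives), LRRC32 and COL1A1 gained one. Genes near 0 turned: RANBP17 was 0.10 with the replicate block, 0.023 with the GC content and length correction, 0.021 with both and from -0.21 (without non-induced T) to 0.081 (without C) with 1 library left out; COL1A1 was 0.024 without non-induced T; and COL3A1 was -0.0042 with upper-quartile factors. Against induced cells, the difference of E2F1 was -0.0029 with no filter, -0.12 with the GC content and length correction, -0.12 with the block added, and -0.052 to 0.046 when 1 library was left out (below 0 without shXPO7_5 B, induced T or shXPO7_3 T). Of all 630 values in that comparison, those 6 of E2F1 below 0 included, 455 kept direction and side, 149 lost and 20 gained a call; 12 calls were lost with upper-quartile factors and 14 in the fit to only the groups compared. The cause was not tested.

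With a log2 fold change of at least 1 required, 2662 genes were called against non-induced cells (2607 and 2710 for shXPO7_3 and shXPO7_5, and 2573 for induced cells), 5 between knockdown and induced cells and 0 between the shRNAs. The other counts against non-induced cells stayed within 1.5 times. Between knockdown and induced cells the count was 37 with upper-quartile factors, 369 with the GC content and length correction, 613 with the block added, 39 in the fit to only the groups compared, 247 with DESeq2, and 1 to 191 when 1 library was left out. Between the shRNAs it was 20 with no filter, 13 and 32 with the GC content and length correction without and with the block, 0 in the fit to only the groups compared (edgeR), 27 with DESeq2, and 1 to 4 when 1 library was left out.

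With upper-quartile factors the median of all genes fell from -0.018 to -0.088 for the knockdown, from -0.0068 to -0.10 for induced and from -0.0080 to -0.10 for shXPO7_3 against non-induced cells, and the share of calls that were higher from 47.7% to 39.8%, from 48.8% to 38.3% and from 48.4% to 38.0%. List medians against non-induced cells then moved to -1.60 for DNA replication, -0.90 for nuclear lamina, 0.10 for p53 targets, 0.24 for cholesterol synthesis, 0.14 for ER stress and -0.25 for nuclear transport. With 1 CPM in at least 6 libraries they moved to -0.19 for G1 control, 3.56 for SASP cytokines and -0.16 for interferon-stimulated genes. With the GC content and length correction DNA replication was -1.49 and cholesterol synthesis 0.37 (0.37 with the block added). Against induced cells the same correction, without and with the block, gave 0.0087 and 0.0079 for growth factors, 0.0076 and 0.0068 for NF-kB and 0.073 and 0.065 for helix-loop-helix factors, and immune recognition was -0.045 with 1 CPM in at least 6 libraries and -0.043 in the fit to only the groups compared.

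Leaving out 1 library gave medians against non-induced cells of -1.54 to -1.49 for DNA replication, -2.49 to -2.42 for mitosis, -0.87 to -0.83 for nuclear lamina, 2.72 to 2.95 for SASP cytokines, 0.30 to 0.38 for cholesterol synthesis and -0.15 to 0.21 for interferon-stimulated genes, and against induced cells of -0.073 to -0.021 for NF-kB, 0.10 to 0.19 for helix-loop-helix factors, 0.018 to 0.073 for growth factors and -0.036 to 0.029 for immune recognition.

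The libraries of different groups share letters. Correlations of the deviations of same-letter libraries ran from -0.23 to 0.59 and exceeded 0.1 in 8 of 15 pairs. For libraries with other letters they ran from -0.62 to 0.512 and exceeded 0.1 in 14 of 39 pairs. A shared effect of the letter was not tested, and the main fit did not pair the samples by letter. The replicate block by letter gave 8105 genes against non-induced cells, 97 between knockdown and induced cells and 3 between the shRNAs. Letter C occurs only among the non-induced libraries, so in every fit with the block that library had a term of its own. Comparisons with non-induced cells then rested on non-induced T and A, and are close to leaving out non-induced C. List medians against non-induced cells with the block were -2.41 for mitosis, -1.45 for DNA repair, -0.89 for nuclear lamina, 2.93 for SASP cytokines, 0.84 for growth factors, 0.22 for interferon-stimulated genes and 0.38 for cholesterol synthesis. Against induced cells the block ended the calls of PLK1 (adjusted p = 0.0665), KIF4A (0.0688) and INSIG1 (0.0635) and MKI67 (0.048) and COL1A1 (0.0395) passed. With the block and the GC content and length correction together, LMNB1 (0.25, adjusted p = 0.0378), NFKBIZ (-0.35, 0.0301) and COL1A1 (0.26, 0.00479) passed, as did CDKN1A, MKI67, TK1 and HES1. At this depth genes with few counts, such as CSF3 in non-induced cells, allow bounds only.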
